A study of Mus musculus with 6 samples.

Results

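The genes described here are 10 genes that make, carry and control melanin: Tyr, Tyrp1, Dct, Pmel, Mlana, Slc45a2, Trpm1, Mlph, Mitf and Sox10. They were picked by name, as textbook pigment-cell genes, from the 54446 genes in the count tables, by the Ensembl identifiers that carry these symbols in the GENCODE M21 annotation. The choice was made with earlier results of these data known, so it was not blind to the levels described below. All 10 passed the filter on low counts, which 13172 genes passed. The RNA came from Treg cells, a class of CD4 T cell marked by the factor Foxp3 that holds immune responses in check. The cells were live, CD45+, CD4+ and Foxp3-GFP+, and were sorted out of subcutaneous tumours of B16F10, a mouse melanoma cell line. The study asked how the RNA of these Treg cells changes when Ythdf2, a gene for a protein that binds methylated mRNAs and promotes their decay, is deleted in them. The 3 libraries labelled Ythdf2 cKO came from Foxp3CreYthdf2fl/fl mice, in which both Ythdf2 alleles are floxed. The 3 control libraries, called WT Control in the titles, came from Foxp3CreYthdf2fl/+ mice, which carry the same Cre with 1 floxed allele. In both groups Cre is driven by Foxp3, so the deletion is aimed at Foxp3-expressing cells and not at the injected tumour cells. The titles also give a cage number. Ythdf2 cKO 2, Ythdf2 cKO 3 and control 3 came from cage 2, while Ythdf2 cKO 1, control 1 and control 2 came from cage 1. The labels do not state the age or sex of the mice.

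Melanin is made in melanosomes, organelles of the pigment cell lineage that melanoma cells share. Tyrosinase (Tyr) catalyses the first and rate-limiting steps from tyrosine, and its relatives Tyrp1 and Dct act on later intermediates. The transcription factors Mitf and Sox10 switch on the genes of the pathway, and T cells are not known to make melanin. Mitf binds short DNA motifs called E-boxes (CATGTG or CACGTG), and an E-box in a longer context, AGTCATGTG, is known as the M-box of the tyrosinase family.

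The windows below are shown because they hold these motifs upstream of members whose RNA is compared in the results. Each runs over the 250 bases before an annotated start, from RefSeq on GRCm38.p6, written 5′ to 3′ on the strand of the gene. Promoter windows were matched for 6 of the 10 genes (Tyr, Tyrp1, Dct, Mitf, Trpm1 and Mlph), which gave 9 windows. The positions are chr7:87493513-87493762 (minus strand) for Tyr, chr4:80833963-80834212 (plus strand) for Tyrp1 and chr14:118052247-118052496 (minus strand) for Dct. For Trpm1 the window of its second annotated start is chr7:64185209-64185458 (plus strand), and for Mlph the window is chr1:90914850-90915099 (plus strand). Capitals mark the M-box in Tyr and Tyrp1 and the E-boxes in the other genes, where CACATG is CATGTG read on the opposite strand.
Tyr: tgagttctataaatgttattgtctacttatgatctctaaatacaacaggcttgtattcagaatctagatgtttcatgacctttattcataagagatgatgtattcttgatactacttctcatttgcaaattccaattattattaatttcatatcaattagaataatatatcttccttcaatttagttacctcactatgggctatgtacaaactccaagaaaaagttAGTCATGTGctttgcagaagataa
Tyrp1: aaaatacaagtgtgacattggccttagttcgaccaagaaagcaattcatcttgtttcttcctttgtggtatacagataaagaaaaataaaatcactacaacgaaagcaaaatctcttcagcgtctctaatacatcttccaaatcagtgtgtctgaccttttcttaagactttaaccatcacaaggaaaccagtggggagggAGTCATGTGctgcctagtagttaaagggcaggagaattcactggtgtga
Dct: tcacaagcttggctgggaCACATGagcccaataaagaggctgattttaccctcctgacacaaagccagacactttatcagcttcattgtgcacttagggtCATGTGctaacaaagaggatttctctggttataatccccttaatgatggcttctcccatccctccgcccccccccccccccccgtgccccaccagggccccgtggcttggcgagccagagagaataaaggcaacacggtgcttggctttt
Trpm1: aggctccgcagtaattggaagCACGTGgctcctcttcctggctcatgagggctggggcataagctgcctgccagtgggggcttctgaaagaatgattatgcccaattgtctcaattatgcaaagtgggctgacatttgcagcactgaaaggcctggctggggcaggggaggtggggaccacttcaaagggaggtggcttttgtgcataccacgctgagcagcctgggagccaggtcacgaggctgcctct
Mlph: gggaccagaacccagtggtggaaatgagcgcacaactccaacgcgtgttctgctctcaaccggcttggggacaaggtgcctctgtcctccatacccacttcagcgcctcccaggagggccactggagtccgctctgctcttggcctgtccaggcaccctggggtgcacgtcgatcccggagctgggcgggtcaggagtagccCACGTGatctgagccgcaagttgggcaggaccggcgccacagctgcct

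The search covered both strands, and AGTCATGTG contains CATGTG. The M-box of Tyr put its CATGTG 21 bases upstream of the start, counted from the first base of that E-box, and the M-box of Tyrp1 put it 46 bases upstream. These distances are to the RefSeq start. GENCODE starts Tyrp1 at chr4:80834123, inside the window, so that motif lies within the gene as annotated there. Dct held a pair of CATGTG matches, 232 and 150 bases upstream, without the longer context. Trpm1 held CATGTG 141 bases before its first start (window not printed) and CACGTG 229 bases before its second. Mlph held CACGTG 48 bases upstream, and none of the 3 Mitf windows held either E-box. Over 32851 windows of the same length, 12.3% held CATGTG, 6.02% held CACGTG and 17.6% held either one, whereas AGTCATGTG occurred in 75 windows (0.228%). ACAAAG, a core bound by SOX proteins, was found once in the Tyrp1 window and at 2 places in the Dct window, and in 16.5% of all windows. These matches describe letters in a window and are not measured binding sites.

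The libraries held between 5602053 (Ythdf2 cKO 1) and 13602069 (control 2) gene counts. The labels do not state whether the libraries come from separate animals, so p-values here describe only how these libraries vary, part of which may be technical. Ythdf2 itself stood at 90.1, 104 and 104 CPM in Ythdf2 cKO 1, 2 and 3, against 124, 102 and 93.1 CPM in controls 1, 2 and 3. CPM are read counts relative to a library's TMM-scaled total. The Ythdf2 groups overlapped, so its transcript level does not check the labels, and the groups are named here as labelled. Foxp3 was present in every library, at 608, 358 and 359 CPM in Ythdf2 cKO 1, 2 and 3 and 449, 496 and 325 CPM in controls 1, 2 and 3. Mitochondrial ribosomal RNA took 18.0% and 19.2% of gene counts in Ythdf2 cKO 2 and 3 and 42.6% in control 3 (cage 2), against 9.97% in Ythdf2 cKO 1, 12.0% in control 1 and 11.1% in control 2 (cage 1). That share moved with cage. When these RNAs, other mitochondrial genes and haemoglobin genes were removed before fitting, all 10 pigment-cell genes were still called by cage, and the log2 fold change of Dct between cages was 4.72 without them and 4.72 with them.

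All 10 pigment-cell genes were detected in RNA labelled as Treg, and their levels were separated by cage and not by genotype label. In each of the 10, every cage 2 library stood above every cage 1 library, an order found in 15.1% of the 13172 genes tested. The lowest cage 2 level was 4.58 (Mitf) to 7.001 (Tyr) times the highest cage 1 level. With TMM, in all 10 genes Ythdf2 cKO 1 was the lowest library, control 3 the highest, and Ythdf2 cKO 3 stood above Ythdf2 cKO 2. The shares of all genes with these orders were not counted. Relative to total gene counts, Sox10 and Trpm1 were highest in Ythdf2 cKO 3 and not in control 3. Ythdf2 cKO 1 also had the fewest genes detected, 14758, against 18395 to 20624 in the other libraries. In bulk RNA like this, fewer cells of a type and less RNA per cell cannot be told apart.

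The 3 enzymes of melanin synthesis were detected at high levels in cage 2. Gene positions are given in mm10. Dct (ENSMUSG00000022129, chr14:118012790-118052244), dopachrome tautomerase, stood at 1003 and 1358 CPM in Ythdf2 cKO 2 and 3 and 2013 CPM in control 3 (cage 2), against 15.2 CPM in Ythdf2 cKO 1 and 143 and 212 CPM in controls 1 and 2 (cage 1). Its cage 2 mean was 1458 ± 512 CPM and its cage 1 mean 123 ± 99.8 CPM (SD, n = 3 each). The cages did not overlap in Dct, and within cage 1 Ythdf2 cKO 1, with 93 reads, lay well below both controls. Tyrp1 (ENSMUSG00000005994, chr4:80834123-80851719), the second member of the tyrosinase family, stood at 666 and 824 CPM in Ythdf2 cKO 2 and 3 and 1333 CPM in control 3 (cage 2), against 13.1 CPM in Ythdf2 cKO 1 and 100.5 and 137 CPM in controls 1 and 2 (cage 1). Tyrp1 showed the same split between cages and the same low library. Tyr (ENSMUSG00000004651, chr7:87424771-87493512) stood at 121 and 136 CPM in Ythdf2 cKO 2 and 3 and 221 CPM in control 3 (cage 2), against 0 CPM in Ythdf2 cKO 1 and 17.3 and 16.7 CPM in controls 1 and 2 (cage 1). Tyr had no read in Ythdf2 cKO 1, where 3 reads, about the upper 95% counting limit for a count of 0, would be 0.491 CPM. By that limit Tyr was at least 34.6-fold lower in Ythdf2 cKO 1 than in the controls of cage 1, which averaged 17.0 CPM. The limit covers counting error only and no variation between libraries.

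Genes of the melanosome itself showed the same separation by cage. Pmel (ENSMUSG00000025359, chr10:128704195-128720238), whose protein forms the fibrils on which melanin is laid down, stood at 252 and 358 CPM in Ythdf2 cKO 2 and 3 and 545 CPM in control 3 (cage 2), against 7.70 CPM in Ythdf2 cKO 1 and 37.4 and 54.3 CPM in controls 1 and 2 (cage 1). Of its 2292 exon bases, 105 overlap Dgka and 34 overlap Cdk2 on the opposite strand, and the sources used here do not give the strand setting of the counting. Cdk2, a cell cycle kinase gene, stood at 93.2 and 101 CPM in Ythdf2 cKO 2 and 3 and 173 CPM in control 3 (cage 2), against 30.5 CPM in Ythdf2 cKO 1 and 38.3 and 30.4 CPM in controls 1 and 2 (cage 1). Dgka, a lipid kinase gene, stood at 235 and 227 CPM in Ythdf2 cKO 2 and 3 and 204 CPM in control 3 (cage 2), against 352 CPM in Ythdf2 cKO 1 and 305 and 298 CPM in controls 1 and 2 (cage 1). Cdk2 was thus higher in cage 2 (log2 fold change 2.02, edgeR adjusted p = 5.59e-04) and Dgka lower (log2 fold change -0.59, edgeR adjusted p = 0.012). Without strand, reads in the shared bases cannot be told apart. Mlana (ENSMUSG00000024806, chr19:29697824-29708634), a small melanosomal membrane protein recognised by T cells in human melanoma, stood at 45.2 and 74.8 CPM in Ythdf2 cKO 2 and 3 and 116 CPM in control 3 (cage 2), against 0.819 CPM in Ythdf2 cKO 1 and 8.39 and 7.04 CPM in controls 1 and 2 (cage 1). The Mlana value of Ythdf2 cKO 1 rests on 5 reads.

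Slc45a2 (ENSMUSG00000022243, chr15:11000721-11029233), a transporter that sets the acidity of the melanosome, stood at 69.6 and 106 CPM in Ythdf2 cKO 2 and 3 and 170.2 CPM in control 3 (cage 2), against 4.75 CPM in Ythdf2 cKO 1 and 14.7 and 10.96 CPM in controls 1 and 2 (cage 1). Trpm1 (ENSMUSG00000030523, chr7:64153835-64269775), a cation channel of melanocytes and of bipolar cells of the retina, stood at 74.6 and 89.8 CPM in Ythdf2 cKO 2 and 3 and 130.0 CPM in control 3 (cage 2), against 4.91 CPM in Ythdf2 cKO 1 and 14.5 and 15.9 CPM in controls 1 and 2 (cage 1). These are the members whose cage 1 libraries lay closest together, with 29 reads of Slc45a2 and 30 of Trpm1 in Ythdf2 cKO 1. Trpm1 shares 12 exon bases with an annotated gene on the opposite strand. Mlph (ENSMUSG00000026303, chr1:90915085-90951142), which links melanosomes through Rab27a to the motor myosin Va, stood at 44.7 and 54.7 CPM in Ythdf2 cKO 2 and 3 and 119 CPM in control 3 (cage 2), against 1.80 CPM in Ythdf2 cKO 1 and 7.51 and 6.29 CPM in controls 1 and 2 (cage 1). Control 3 stood apart in Mlph, above both Ythdf2 cKO libraries of its cage.

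The regulators were separated by cage in the same way. Mitf (ENSMUSG00000035158, chr6:97807052-98021349) stood at 122 and 232 CPM in Ythdf2 cKO 2 and 3 and 346 CPM in control 3 (cage 2), against 5.41 CPM in Ythdf2 cKO 1 and 25.3 and 26.7 CPM in controls 1 and 2 (cage 1). Counts per gene do not separate its 8 annotated transcripts, so the form made by melanocytes cannot be told from those of other cells. Sox10 (ENSMUSG00000033006, chr15:79154908-79165240), a factor of the neural crest that activates Mitf, stood at 53.0 and 115 CPM in Ythdf2 cKO 2 and 3 and 122 CPM in control 3 (cage 2), against 1.15 CPM in Ythdf2 cKO 1 and 8.21 and 6.97 CPM in controls 1 and 2 (cage 1). With TMM, Sox10 was the member in which Ythdf2 cKO 3 came closest to control 3, and the Ythdf2 cKO 1 value rests on 7 reads.

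**Figure D1:**
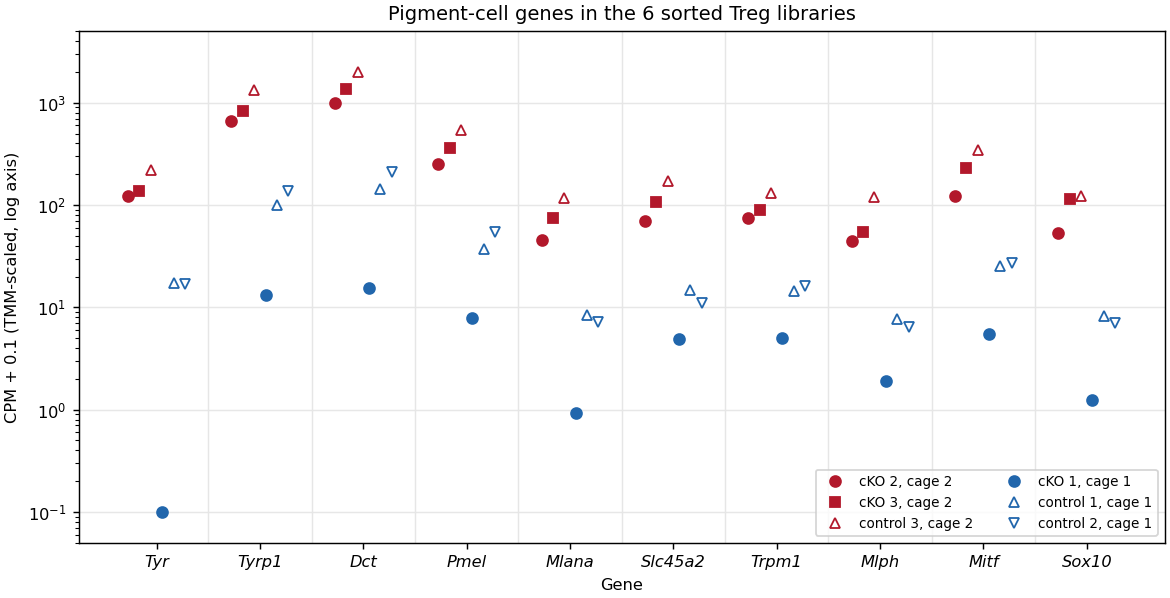
CPM of each of the 10 pigment-cell genes in the 6 libraries, on a log axis after adding 0.1, with cage 2 libraries in red and cage 1 libraries in blue, filled symbols for Ythdf2 cKO and open symbols for control. For every gene the red points lie above the blue ones, and the filled blue circle (Ythdf2 cKO 1) is the lowest, at 0 CPM for Tyr.

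Compared between cages with the group in the model, all 10 genes were higher in cage 2. The edgeR quasi-likelihood test called 10 of 10 higher at a Benjamini-Hochberg adjusted p threshold of 0.05, where it called 7.83% of all genes tested higher and 3.68% lower. Because the 10 were chosen with earlier results of these data known, this count is a description and no independent support. Scaled by total gene counts instead of TMM, the calls over all genes were 646 higher and 732 lower, against 1031 higher and 485 lower with TMM, and the median of all genes moved by -0.34 on the log2 scale. The 10 genes were called higher under both scalings. Their median log2 fold change was 4.41, with a median of 0.013 over all genes tested.

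Among the enzymes, Dct was 26.4-fold higher in cage 2 than in cage 1 (log2 fold change 4.72, SE 0.56, edgeR adjusted p = 0.0014). Tyrp1 was 22.5-fold higher in cage 2 (log2 fold change 4.50, SE 0.46, edgeR adjusted p = 7.40e-04). Tyr had a log2 fold change of 4.72 (SE 0.64, edgeR adjusted p = 0.0025), a fitted value that leans on a library with no read.

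Of the melanosome genes, Pmel was 19.1-fold higher in cage 2 (log2 fold change 4.26, SE 0.37, edgeR adjusted p = 3.86e-04). Mlana was 22.7-fold higher (log2 4.51, SE 0.41, edgeR adjusted p = 4.57e-04). Mlph was 20.1-fold higher (log2 4.33, SE 0.24) and ranked 1 of 13172 genes by the p-value of the cage test (edgeR adjusted p = 1.78e-04). Slc45a2 was 15.1-fold higher (log2 3.92, SE 0.25), and Trpm1, with the smallest difference of the 10, was 11.2-fold higher (log2 3.48, SE 0.24). Slc45a2 ranked 3 and Trpm1 ranked 9 by p-value, and both had an edgeR adjusted p of 1.78e-04. The regulators lay within the range of the other members. Mitf was 18.6-fold higher (log2 4.22, SE 0.34, edgeR adjusted p = 2.42e-04) and Sox10 24.7-fold higher (log2 4.63, SE 0.46, edgeR adjusted p = 6.67e-04) in cage 2. The 95% intervals of all 10 log2 fold changes shared the stretch between 3.78 and 4.03, so the sizes were not told apart from each other by these intervals.

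The size of the cage difference depended on the model and on a pair of libraries. Without the group as a term, the log2 fold changes of cage 2 over cage 1 were 3.55 for Dct, 3.48 for Tyrp1, 3.50 for Pmel, 3.56 for Mitf, 3.73 for Tyr and 3.02 for Trpm1, nearer to the ratio of the cage means, and 10 of 10 genes were called. Without Ythdf2 cKO 1, which leaves the controls alone to span both cages, the log2 fold changes were 3.09 (Trpm1) to 4.11 (Mlph). Without control 3, which leaves Ythdf2 cKO to span both cages, they were 4.08 (Trpm1) to 6.30 (Dct), and 13.4 for Tyr, for which the only cage 1 library of that fit with the same label has no read. In both cases 10 of 10 genes were called. The count over all genes, 1516, was 735 without control 2, 826 without Ythdf2 cKO 1 and 660 without Ythdf2 cKO 3.

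Compared by genotype label alone, no difference was found in any of the 10 genes, and the SD within each group was close to its mean or larger. Dct averaged 792 ± 696 CPM in Ythdf2 cKO and 790 ± 1060 CPM in control libraries (SD, n = 3 each). Tyr averaged 85.9 ± 74.8 CPM in Ythdf2 cKO and 84.9 ± 118 CPM in control libraries (SD, n = 3 each). Mitf averaged 120.0 ± 113 CPM in Ythdf2 cKO and 133 ± 185 CPM in control libraries (SD, n = 3 each). The groups overlapped in all 10 genes. Of the genes tested, 4.22% had every Ythdf2 cKO library below every control, and the share with every Ythdf2 cKO library above was not counted.

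The edgeR test called 0 of the 10 by genotype (percent called over all genes: 0 higher and 0 lower), DESeq2 and limma-voom also called 0, and edgeR found 1.62% of all genes at an unadjusted p under 0.05 but none of the 10. Log2 fold changes of Ythdf2 cKO over control lay between -0.38 (Mlph, SE 1.33) and 0.33 (Sox10, SE 1.43), with 4 genes above 0 and 6 below under TMM and all 10 above 0 under total gene counts. Their median was -0.048. The 95% intervals reached down to between -3.53 and -2.496 and up to between 2.69 and 3.67, so a change of several-fold in either direction was not detectable with this spread.

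**Figure D2:**
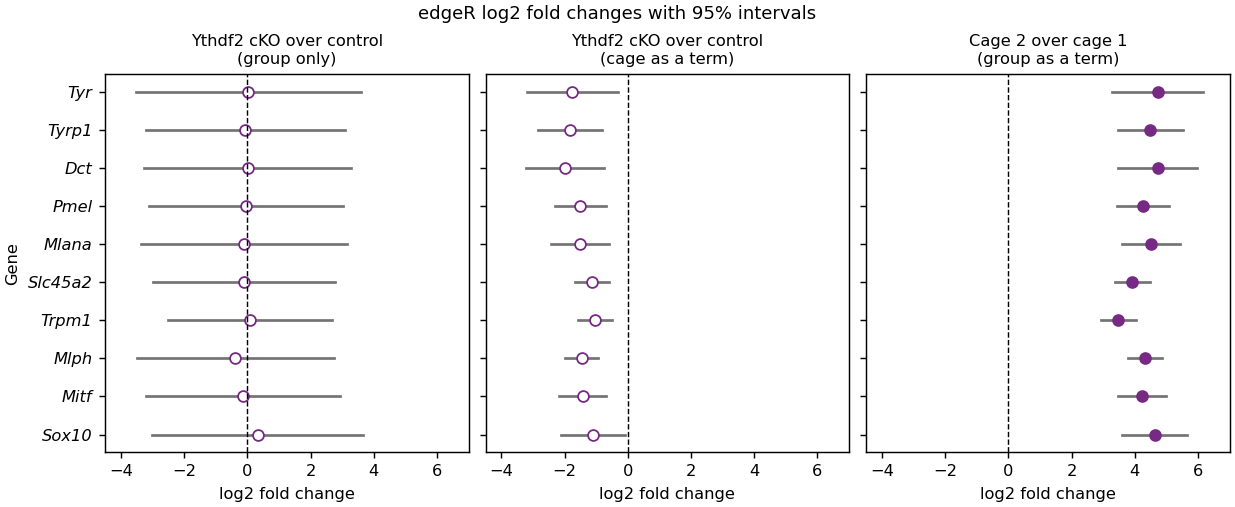
Log2 fold changes (points) and 95% intervals (lines) of the 10 genes from edgeR, for Ythdf2 cKO over control without and with cage as a term and for cage 2 over cage 1, with filled points for an adjusted p under 0.05. Only the cage 2 over cage 1 points are filled, between 3.48 and 4.72, and the genotype intervals narrow once cage is a term.

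The cages hold the groups unevenly, so the genotype values were also read within each cage. With TMM, in all 10 genes Ythdf2 cKO 1 lay below both controls of cage 1, and Ythdf2 cKO 2 and 3 lay below control 3 of cage 2. The same order held in 18.5% of all genes tested. In cage 2 the mean of Ythdf2 cKO 2 and 3 was, with TMM, 0.417 (Mlph) to 0.690 (Sox10) times control 3, a single library. The order in cage 2 depends on scaling, with a TMM factor of 0.713 in control 3 and 1.05 in Ythdf2 cKO 3. Relative to total gene counts, Sox10 and Trpm1 were higher in Ythdf2 cKO 3 than in control 3. Sox10 had 1111 reads of 9263893 gene counts in Ythdf2 cKO 3 and 773 of 8923124 in control 3. Trpm1 had 865 and 824 reads. In cage 1 the single library Ythdf2 cKO 1 lay 2.70-fold (Slc45a2) to 11.7-fold (Dct) below the mean of the controls, leaving out Tyr, which had no read there.

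With cage as a term, log2 fold changes of Ythdf2 cKO over control were below 0 in all 10 genes, from -1.99 (Dct, SE 0.55) to -1.03 (Trpm1, SE 0.24), with a median of -1.49 beside -0.041 over all genes tested. All 10 had an unadjusted edgeR p under 0.05, as did 10.2% of all genes tested, with the smallest for Mlph (1.40e-04) and the largest for Sox10 (0.036). None of the 10 passed after adjustment, with adjusted p between 0.45 and 0.48 in this edgeR fit, which called 0 genes of any kind. This fit used TMM and was not repeated with another tool or scaling. Without cage as a term, all 10 values lay above 0 under total gene counts. Whether the direction found with cage as a term depends on scaling was therefore not tested.

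The size of the genotype difference was itself compared between cages. Log2 differences between the cages were above 0 in all 10 genes, and 8 of 10 had an unadjusted edgeR p under 0.05, as did 14.3% of all genes tested. Tyr was called, with an edgeR adjusted p of 0.0178, where 0.0304% of all genes were called higher and 0.0152% lower. The fit leaves 2 residual degrees of freedom, and 1 library stands for Ythdf2 cKO in cage 1 and 1 for control in cage 2. For the other members the edgeR adjusted p lay between 0.11 and 0.70.

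The 10 genes together took 0.255% (exact Clopper-Pearson 95% interval 0.252 to 0.258) of gene counts in Ythdf2 cKO 2, 0.348% (0.345 to 0.352) in Ythdf2 cKO 3 and 0.363% (0.359 to 0.367) in control 3. In cage 1 they took 0.00598% (0.00536 to 0.00666) in Ythdf2 cKO 1, 0.0406% (0.0394 to 0.0418) in control 1 and 0.0537% (0.0525 to 0.0549) in control 2. No interval overlapped that of another library, although such intervals cover counting error only, since reads are not independent molecules. Set against Foxp3, the gene the sort selected, Dct had 2.80 reads per Foxp3 read in Ythdf2 cKO 2, 3.78 in Ythdf2 cKO 3 and 6.20 in control 3 (cage 2), against 0.0251 in Ythdf2 cKO 1, 0.319 in control 1 and 0.427 in control 2 (cage 1). This ratio needs no scaling of the libraries, and it was above 1 in all cage 2 libraries and below 1 in all cage 1 libraries.

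Ratios between the 10 genes changed far less than their level. Outside Ythdf2 cKO 1, Dct made up 38.0% to 42.9% of the reads of the 10 genes, Tyrp1 24.6% to 27.8% and Pmel 9.91% to 11%, in both groups and both cages. Mitf made up 4.99% to 6.93%, Tyr 3.38% to 4.94%, Trpm1 2.54% to 3.84% and Slc45a2 2.22% to 3.89%. The widest relative range over these 5 libraries was that of Sox10, the highest share being 2.44 times the lowest, and the narrowest that of Pmel, at 1.11 times. Sox10 took 3.44% (exact 95% interval 3.25 to 3.65) in Ythdf2 cKO 3, above its 2.16% (1.99 to 2.35) in Ythdf2 cKO 2 and 2.38% (2.22 to 2.56) in control 3.

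Ythdf2 cKO 1 had another makeup, over only 335 reads of the 10 genes. There Dct made up 27.8% (exact 95% interval 23.03 to 32.9), Mitf 9.85% (6.88 to 13.6), Slc45a2 8.66% (5.87 to 12.2) and Trpm1 8.96% (6.12 to 12.5). The shares of 8 of the 10 genes fell outside the range of the other libraries, and those of Mlana and Sox10 fell inside it. For Tyrp1 (19.4 to 28.8), Pmel (10.5 to 18.2), Mitf and Mlph (1.65 to 5.80) the exact 95% interval reached into that range. By these intervals Tyr, Dct, Slc45a2 and Trpm1 lay outside it. The intervals treat reads as independent and come from a single library, and the range leaves out the intervals of the other libraries. Tyr, with 0 of 335 reads, had an exact 95% upper limit of 1.095%, below its lowest share elsewhere.

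**Figure D3:**
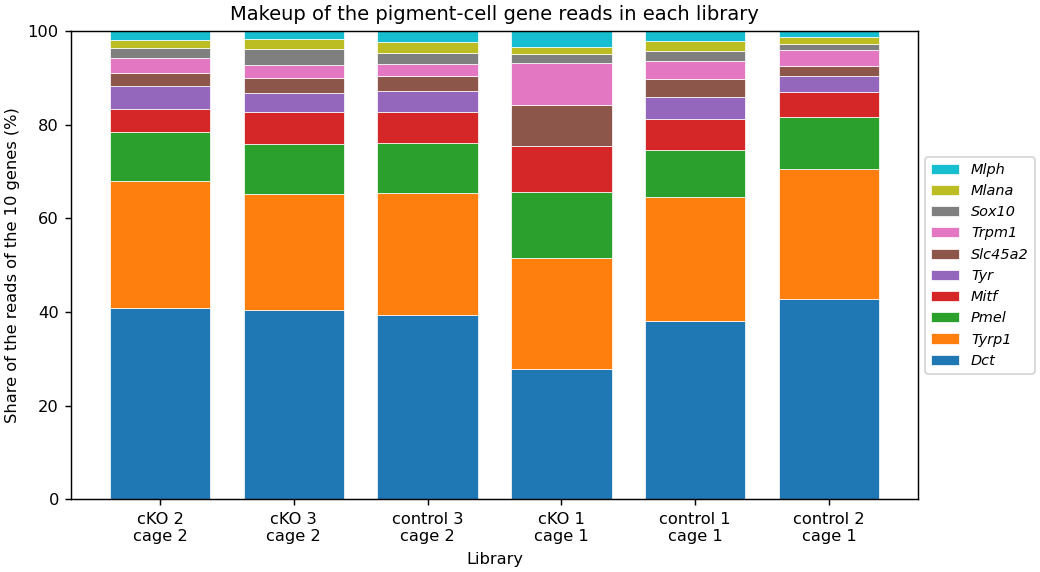
Share of each gene in the summed reads of the 10 pigment-cell genes (vertical axis, percent), with 1 bar for each library. The bars are alike except that of Ythdf2 cKO 1, in which Dct has 27.8%, against 38.0% to 42.9% elsewhere, and Slc45a2 and Trpm1 take larger shares.

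To compare levels between genes, CPM were divided by exon length in kilobases. Per kilobase Tyrp1 ranked first of the 10 in all 6 libraries, with a median level of 291 CPM per kilobase in cage 2 and 35.5 in cage 1. Dct, at medians of 230.3 CPM per kilobase in cage 2 and 24.3 in cage 1, came next, followed by Pmel, at 156 in cage 2 and 16.3 in cage 1. Dct and Pmel changed places in Ythdf2 cKO 1 only. Mlana followed, with medians of 70.8 CPM per kilobase in cage 2 and 6.66 in cage 1. Sox10, Mitf and Slc45a2 had cage 2 medians of 37.8, 37.5 and 35.6 CPM per kilobase and overlapping values, so their order was not resolved. Tyr (19.2), Mlph (10.2) and Trpm1 (6.09) had the lowest cage 2 medians per kilobase. Between neighbours in this order the ranges over the cage 2 libraries overlapped for Tyrp1 and Dct, for Dct and Pmel and for Pmel and Mlana, and Mlana overlapped Mitf and Slc45a2 but not Sox10. Division by the summed exons of all transcripts understates a gene with long unused exons, such as Trpm1 with its 23 annotated transcripts.

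Other genes of the melanosome were partly higher in cage 2. Of a list of 26 genes for melanosome proteins and pigment transport, 25 passed the filter, 9 were called higher in cage 2 (Cd63, Slc24a5, Gpr143, Gpnmb, Rab38, Oca2, Rab32, Myo5a and Atp7a), 0 lower, and 16 did not pass, where 7.83% of all genes tested were called higher and 3.68% lower. Under total gene counts Rab32 was no longer called (edgeR adjusted p = 0.067). Gpr143 had 4 and 8 reads in controls 1 and 2 and 0 in Ythdf2 cKO 1. It passed the filter only through the cage 2 libraries, so its call is not independent of the filter. The list's median log2 fold change was 0.50. Slc24a5, an ion exchanger of the melanosome, stood at 49.9 and 63.7 CPM in Ythdf2 cKO 2 and 3 and 105 CPM in control 3 (cage 2), against 0.164 CPM in Ythdf2 cKO 1 and 7.60 and 7.65 CPM in controls 1 and 2 (cage 1). Its log2 fold change was 4.59 (SE 0.52, edgeR adjusted p = 0.0012), inside the range of the 10 genes. Gpnmb, a relative of Pmel that macrophages also make, was higher by 4.29 on the log2 scale (SE 0.56, edgeR adjusted p = 0.0021). Cd63, a membrane protein of late endosomes that sorts Pmel, was higher by 4.64 (SE 0.62, edgeR adjusted p = 0.0023).

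Myo5a, the motor gene to which Mlph couples melanosomes, stood at 242 and 282 CPM in Ythdf2 cKO 2 and 3 and 399 CPM in control 3 (cage 2), against 95.3 CPM in Ythdf2 cKO 1 and 116 and 106 CPM in controls 1 and 2 (cage 1). It was well above 0 in every library and its log2 fold change was smaller, at 1.66 (SE 0.14, edgeR adjusted p = 3.73e-04). Rab27a, the remaining partner of that complex and a gene that T cells use for granule release, stood at 158 and 143 CPM in Ythdf2 cKO 2 and 3 and 177 CPM in control 3 (cage 2), against 128 CPM in Ythdf2 cKO 1 and 134 and 133 CPM in controls 1 and 2 (cage 1). Its log2 value was 0.32 with TMM and -0.017 with total gene counts, and it did not pass (edgeR adjusted p = 0.14). Rab27a, like Lef1, Tfe3, Tfeb, Ednrb and Kit in the next list, was named after its values were seen. The members of the general lysosome-related machinery in the list, the Hps genes, Ap3b1, Ap3d1, Bloc1s3 and Bloc1s6, did not pass either.

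Of 14 regulators of melanocytes and their relatives, 12 passed the filter, 5 were called higher in cage 2 (Mc1r, Pax3, Sox9, Tfap2a and Zeb2), 1 lower (Lef1) and 6 did not pass, where 7.83% of all genes tested were called higher and 3.68% lower. The list's median was -0.065. Sox9 was no longer called under total gene counts (edgeR adjusted p = 0.073). It had 10 and 3 reads in controls 1 and 2 and 0 in Ythdf2 cKO 1. Sox9 passed the filter only through the cage 2 libraries, so its call is not independent of the filter. Pax3, a neural crest factor that acts with Sox10 on Mitf, stood at 51.7 and 60.9 CPM in Ythdf2 cKO 2 and 3 and 103 CPM in control 3 (cage 2), against 0.819 CPM in Ythdf2 cKO 1 and 8.57 and 7.17 CPM in controls 1 and 2 (cage 1). Its log2 fold change was 4.35 (SE 0.39, edgeR adjusted p = 4.27e-04), with the same order of cages as the 10 genes. The receptors Ednrb and Kit, which melanocytes need in development, had values on the other side of 0. Ednrb stood at 11.7 and 16.3 CPM in Ythdf2 cKO 2 and 3 and 1.42 CPM in control 3 (cage 2), against 11.5 CPM in Ythdf2 cKO 1 and 13.7 and 14.1 CPM in controls 1 and 2 (cage 1). It had a log2 value of -1.25 (edgeR adjusted p = 0.35) and Kit one of -0.43 (edgeR adjusted p = 0.50), so neither passed. Mc1r, the melanocortin receptor that raises Mitf expression, was higher by 4.85 (SE 0.60, edgeR adjusted p = 0.0017), and Tfap2a, a neural crest factor, by 3.96 (SE 0.72, edgeR adjusted p = 0.0096). Zeb2, which effector T cells and macrophages also express, was higher by 1.54 (SE 0.25, edgeR adjusted p = 0.0058). Lef1, a Wnt pathway factor that T cells express, fell by 0.79 on the log2 scale in cage 2 (edgeR adjusted p = 0.021). The close relatives of Mitf did not pass, with log2 values of -0.18 for Tfe3 (edgeR adjusted p = 0.63) and -0.092 for Tfeb (edgeR adjusted p = 0.88). The genotype test in edgeR, which called no gene at all, called none of either list.

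**Figure D4:**
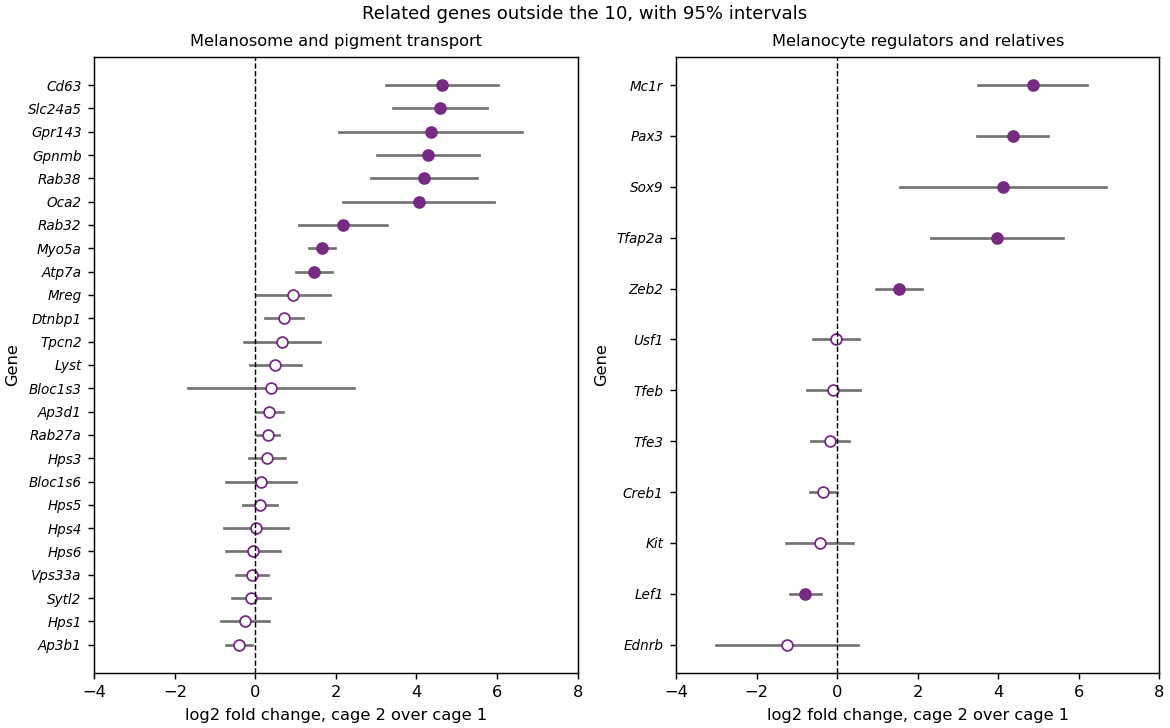
Log2 fold changes of cage 2 over cage 1 (points) with 95% intervals (lines) for the genes of both related lists that passed the filter, with filled points for an edgeR adjusted p under 0.05. Slc24a5, Gpnmb, Cd63, Pax3 and Mc1r lie near the 10 pigment-cell genes, between 4.29 and 4.85, while Rab27a, Tfe3 and Tfeb lie near 0.

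Genes with a profile like that of the 10 were sought over the 6 libraries by the root mean square difference of centred log2 CPM from the mean profile of the 10. The closest was Tubb3, a tubulin gene, at 0.061 log2 units, where the median over all genes tested was 2.26. Next came Ncald (0.12), Dennd2a (0.14), Pax3 (0.14), Syde1 (0.16), Unc5c (0.16), Rims2 (0.16), Sgce (0.16) and Hs3st1 (0.18). Tubb3 stood at 7.72 and 10.4 CPM in Ythdf2 cKO 2 and 3 and 16.9 CPM in control 3 (cage 2), against 0 CPM in Ythdf2 cKO 1 and 1.06 and 1.22 CPM in controls 1 and 2 (cage 1). Within the 10, Mlana (0.17), Tyrp1 (0.19) and Pmel (0.21) were closest to the mean of the others, whereas Slc45a2 (0.61), Trpm1 (0.67) and Tyr (1.51) were farthest. Over 6 libraries that share 1 main order, many genes can have a like profile.

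Markers of the sorted cells moved the other way by cage. Of 8 Treg markers, 6 were lower in cage 2 with TMM and 7 with total gene counts, none was higher, and all 8 were detected in all libraries. Of all 13172 genes, 485 were called lower with TMM and 732 with total gene counts. Foxp3 fell by 0.65 on the log2 scale in cage 2 (edgeR adjusted p = 0.0091), Cd4 by 0.57 (edgeR adjusted p = 0.039) and Cd3e by 0.64 (edgeR adjusted p = 0.018). Ptprc, which encodes the CD45 of the gate, stood at 1555 and 1241 CPM in Ythdf2 cKO 2 and 3 and 1129 CPM in control 3 (cage 2), against 2111 CPM in Ythdf2 cKO 1 and 1818 and 1829 CPM in controls 1 and 2 (cage 1). On total gene counts the 10 pigment-cell genes summed to 2552 and 3482 CPM in Ythdf2 cKO 2 and 3 and 3634 CPM in control 3 (cage 2), against 59.8 CPM in Ythdf2 cKO 1 and 406 and 537 CPM in controls 1 and 2 (cage 1). The 8 Treg markers summed to 5236 and 4303 CPM in Ythdf2 cKO 2 and 3 and 2589 CPM in control 3 (cage 2), against 7292 CPM in Ythdf2 cKO 1 and 7284 and 6591 CPM in controls 1 and 2 (cage 1). Control 3 is the library in which the pigment-cell sum exceeded the Treg marker sum. The part of tumour cell RNA in the cage difference was not tested, and the labels give no measure of sort purity.

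In cage 2, markers of other cells in a tumour summed to far less than the pigment-cell genes. Beside the called counts below, 7.83% of all genes tested were called higher in cage 2 with TMM and 3.68% lower. With total gene counts, 646 of the 13172 genes were called higher and 732 lower. Of 11 macrophage and dendritic cell markers, 10 passed the filter and 4 were called higher in cage 2 (Mrc1, Lyz2, Cd68 and Adgre1), or 2 under total gene counts. Their sums were 25.1 and 120 CPM in Ythdf2 cKO 2 and 3 and 171 CPM in control 3 (cage 2), against 13.6 CPM in Ythdf2 cKO 1 and 18.5 and 60.7 CPM in controls 1 and 2 (cage 1). These sums overlapped between cages. Lyz2 stood at 6.56 and 41.7 CPM in Ythdf2 cKO 2 and 3 and 90.7 CPM in control 3 (cage 2), against 2.46 CPM in Ythdf2 cKO 1 and 4.95 and 20.2 CPM in controls 1 and 2 (cage 1), with a log2 fold change of 3.00 (SE 0.73, edgeR adjusted p = 0.032). Of 7 Schwann cell markers, which share Sox10 with melanocytes, 5 passed and 0 were called. Their sums were 102 to 134 CPM in cage 2 and 128 to 176 CPM in cage 1. In Ythdf2 cKO 1 the Schwann cell sum, mostly Mbp at 128 CPM, was above the pigment-cell sum of 59.8 CPM. Of 6 keratinocyte and hair follicle markers 0 passed, with sums of at most 1.51 CPM, and Trp63 and Dsg3 had 0 reads in all libraries. Of 9 melanoma genes outside pigment synthesis, 6 passed and 5 were called higher in cage 2 (Tbx2, Mcoln3, Mcam, S100b and S100a1), or 4 under total gene counts. All 9 genes of this list together summed to 90.1 to 149 CPM in cage 2 and 56.4 to 68.2 CPM in cage 1. Most of the cage 1 sums was Gpm6b, the gene that passed the filter but was not called. Its log2 value lay on the other side of 0, at -0.50 (edgeR adjusted p = 0.19). With TMM, Gpm6b averaged 32.53 CPM in cage 2 and 42.15 CPM in cage 1, so the sums understate the separation of the called genes. The fibroblast list had 2 of 6 genes called higher (Col1a1 and Col1a2) and the erythroid list 2 of 5. Col1a2 had 3 and 8 reads in controls 1 and 2 and 0 in Ythdf2 cKO 1. It passed the filter only through the cage 2 libraries, so its call is not independent of the filter. Only 1 of 4 endothelial and 2 of 4 B cell markers passed the filter, and none of these was called with TMM. Sums in cage 2 and cage 1 were 9.34 to 122 CPM and 2.87 to 9.82 CPM for the fibroblast list, and 18.0 to 153 CPM and 0.666 to 22.7 CPM for the erythroid list. They were 35.8 to 204 CPM in cage 2 and 85.3 to 109 CPM in cage 1 for the endothelial list, and 3.81 to 8.03 CPM in cage 2 and 5.23 to 16.4 CPM in cage 1 for the B cell list. The highest endothelial sum was that of Ythdf2 cKO 3, which held 643 reads of Kdr and 385 of Cdh5, against at most 7 of Kdr and 8 of Cdh5 in any other library. The part of any of these cells in the cage difference of the pigment-cell genes was not tested.

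**Figure D5:**
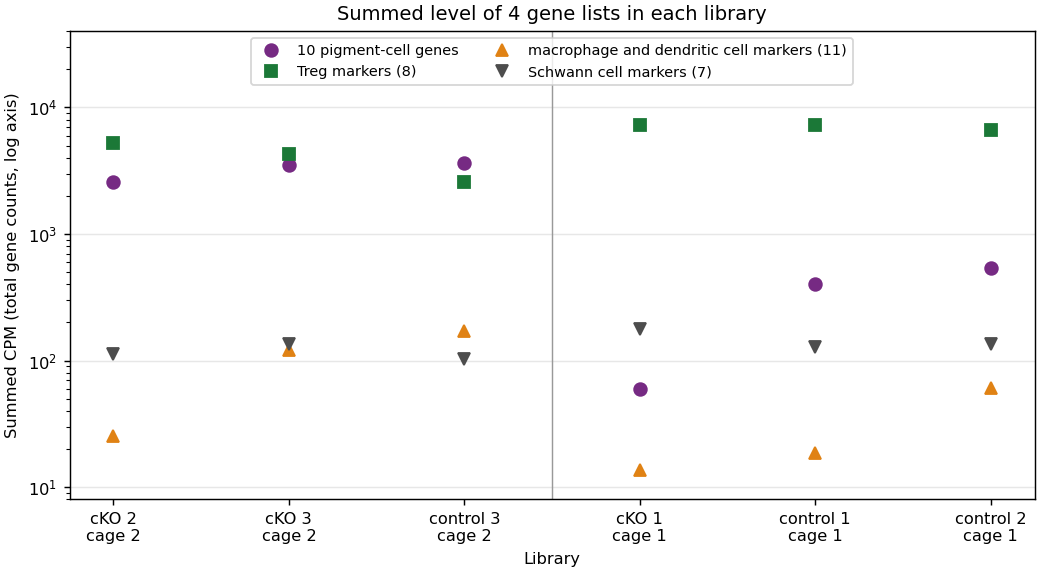
Summed CPM (total gene counts, log axis) of the 10 pigment-cell genes and of the Treg, macrophage and dendritic cell, and Schwann cell markers in each library, with cage 2 left of the vertical line and cage 1 right of it. The pigment-cell sum is 2552 to 3634 CPM in cage 2 and 59.8 to 537 CPM in cage 1, while the Treg sum is lower in cage 2.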

How the data were processed

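RNA was measured in 6 libraries made with a stranded total RNA kit, per the labels' protocols. The authors deposited raw read counts per gene, 1 table per library. Per the submitters' processing notes, the tools were Trimmomatic 0.39 (trimming), HISAT2 2.1.0 (alignment), HTSeq (counting) and DESeq2, on build mm10. The sources used here do not give the annotation release or strand setting. Of 54446 genes, 54409 matched GENCODE M21 by identifier. Rows that name no gene (24.6% to 35.8% of records in no gene, 1.43% to 2.21% ambiguous, 9.22% to 12.9% aligned to several places) stayed out of library sizes and tests.

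The low-count filter was filterByExpr with a minimum count of 10 and a total of 15. After TMM scaling, genes were tested by the quasi-likelihood method of edgeR 4.0.16 in R 4.3.3, with Benjamini-Hochberg adjustment over 13172 genes and a threshold of 0.05. Genotype was tested with the group as the only term, cage with the group as a term, and their interaction with both. SE is the log2 fold change divided by the square root of F. Every pair of libraries differed beyond sampling noise, the closest pair at a chi-square of 15.8 per degree of freedom. The alternatives were DESeq2 1.42.0, limma-voom (limma 3.58.1), other scaling factors, other filters, a replicate block and each library left out. Likeness used log2 CPM with a prior count of 2. Besides the 10 genes, the 10 nearest in likeness and up to 4 genes with the smallest cage p of each related list were named by rule. All called genes of each related list are listed. The called Treg and erythroid markers are not all named. Values of 2 genes within these rules and lists are not reported here. The members and lists were chosen with earlier results of these data known.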

Additional observations from a re-analysis of the deposited data

Results flagged for a closer look

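Tyr had an adjusted p of 0.0178 in the edgeR test of whether the difference between Ythdf2 cKO and control was the same in both cages. In cage 1 Tyr stood at 0 CPM in Ythdf2 cKO 1, against 17.3 and 16.7 CPM in controls 1 and 2. By the counting limit for 0 reads this is at least 34.6-fold lower. In cage 2 the mean of Ythdf2 cKO 2 and 3 was 0.584 times control 3 on TMM-scaled CPM. The fitted log2 value is no bound, because Ythdf2 cKO 1 has no Tyr read, and the test rests on 2 residual degrees of freedom, with 1 library each for Ythdf2 cKO in cage 1 and control in cage 2. It does not establish that the cages differ.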

How the results depend on the processing

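All 10 cage differences kept their direction in 16 alternatives. Of 160 recomputed cage values, 158 kept their call, and under the replicate block Tyr (4.76, adjusted p 0.095) and Sox10 (3.87, adjusted p 0.055) lost it, so 8 genes were called. The replicate numbers do not pair the libraries: correlations of same-numbered deviations were 0.41, -0.24 and 0.55, and control 2 did not correlate best with its own number. Leaving out 1 library moved the cage log2 fold changes between 3.09 (Trpm1) and 6.30 (Dct), with Tyr reaching 13.4. Genotype values were called in 0 of 160 recomputations, and 51 changed sign. Those were, under total gene counts, Tyrp1 0.38, Pmel 0.41, Mlana 0.35, Mitf 0.32, Slc45a2 0.35 and Mlph 0.093; with RLE factors Dct -0.011; at a mean CPM of at least 5 Dct -0.00091; in DESeq2 Tyr -0.0026 and Dct -0.013; in limma-voom Tyr -0.61, Dct -0.47, Pmel 0.035, Mlana 0.56, Mitf 0.27, Slc45a2 0.79 and Mlph 0.77; with cage as a term Tyr -1.76, Dct -1.99, Sox10 -1.11 and Trpm1 -1.03; with the replicate block Tyr -0.33, Dct -0.46 and Slc45a2 0.11. Leaving out 1 library gave genotype values of -0.47 to 2.38 for Tyr, -0.62 to 2.11 for Tyrp1, -0.63 to 2.19 for Dct, -0.70 to 2.20 for Pmel, -0.91 to 2.43 for Mlana, -1.04 to 2.25 for Mitf, -0.73 to 2.94 for Sox10, -0.79 to 2.27 for Slc45a2, -0.41 to 1.93 for Trpm1 and -0.91 to 2.33 for Mlph, in each gene highest without control 3. Over all genes, the genotype count was 33 without a filter on low counts. The cage count, 1516, was 2347 without that filter, 2349 in DESeq2, 849 without the group as a term, 46 with the replicate block and 660 to 1234 with 1 library left out. The interaction count, 6, was 30 under total gene counts and 64 in DESeq2. For these shifts the cause was not tested, except that fewer libraries and added terms leave fewer degrees of freedom. Few reads limit Ythdf2 cKO 1, in which the 10 genes had 335 together. That library had the fewest gene counts (5602053), and the 10 genes also took the smallest share of them. The share was 0.00598%, against 0.0406% in control 1 and 0.0537% in control 2.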

Other observations

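Mir211, a microRNA gene inside Trpm1, had 6 reads in control 3 and 0 reads in the other libraries, a number too small to compare. Mc1r, Oca2, Gpr143, Cd63 and Tfap2a, like Tyr, had 0 reads in Ythdf2 cKO 1. That library had the fewest genes detected, 14758, and markers of other cells such as Mrc1 and Col1a2 also had 0 reads there. The share of all genes with 0 reads in it was not counted.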
